A study of Rattus norvegicus with 12 samples.

Results

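Immediate early genes are switched on within minutes of a stimulus, without the need for new protein, by kinases that act on factors such as SRF and CREB already bound to their promoters. Many of them encode transcription factors: Fos and Fosb pair with Jun, Junb and related proteins to form AP-1, and Egr1 and Nr4a1 act on their own sites. In bone they are known to answer mechanical load and parathyroid hormone, and Fos is needed for osteoclasts to form. They are also known to respond to stress and to the handling of tissue. The set was named as 10 genes, Fos, Fosb, Jun, Junb, Egr1, Atf3, Ier2, Dusp1, Nr4a1 and Btg2, and its members were the probe sets annotated with one of these symbols alone. For 9 of the 10 genes 13 probe sets were found, out of 14217 genes and 31042 probe sets in all. No probe set carried the name Btg2, which was not analysed here. Fos and Dusp1 had 2 probe sets each, Jun had 3 and the other genes 1.

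Total RNA from long bone of female Sprague-Dawley rats was hybridized to Affymetrix rat genome arrays in 4 groups of 3 arrays, with RNA of 2 to 3 rats pooled for each. Sham-operated rats (sham) and ovariectomized rats (OVX) were fed the casein control diet, and 2 further ovariectomized groups were fed a diet with 10% blueberry (BB) powder, from postnatal day (PND) 20 until sacrifice (LTBB OVX) or from PND 20 to PND 34 only (STBB OVX). Surgery was on PND 60 and all rats were sacrificed on PND 81, so every group was measured at the same age and at one time after surgery. The bone is a femur by the labels and a right tibia by the methods. The deposited values are on the log2 scale and were centred, so that the median of every probe set is 0. A value therefore gives the distance of an array from that median and not the level of a gene, and no level can be compared between genes. Pools of the same group differ from each other by tissue, by animals and by processing, and the p-values measure that spread (n = 3 pools per group), whose precision the number of arrays limits.

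Sham bone differed widely from that of ovariectomized rats, and 58.9% of all genes passed limma's test between OVX and sham at an adjusted p of 0.05 (30.3% higher and 28.6% lower in OVX). Markers of the cells in the samples moved with this difference. The mean centred log2 value of 10 skeletal muscle markers ran from 3.15 to 4.09 among sham arrays and from -3.73 to -1.40 among OVX arrays. For LTBB OVX it ran from -3.82 to 0.16, and for STBB OVX from 0.027 to 0.73. All 10 muscle, 6 of 6 erythroid and 5 of 5 neutrophil markers were lower in OVX than in sham, and 7 of 7 osteoblast, 6 of 7 cartilage, 4 of 4 osteoclast and 5 of 5 endothelial markers were higher. Of 7 macrophage markers 4 were higher and 1 lower. The median log2 fold changes of these lists were -6.32 for muscle, -3.21 for erythroid cells, -2.72 for neutrophils, 2.60 for osteoblasts, 5.09 for cartilage, 3.62 for osteoclasts, 0.97 for endothelium and 0.64 for macrophages. In such bulk samples fewer cells of a type and less RNA per cell cannot be told apart. The part of these markers in the results on the immediate early genes was not tested, also where their values are given side by side.

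The promoters of 4 members are shown, since Dusp1, Nr4a1 and Ier2 were lower and Junb was higher in OVX than in sham bone. Each is the 250 bases before a RefSeq transcript start, read 5′ to 3′ on the plus strand of the assembly GRCr8: chr10:17184603-17184852 for Dusp1, chr7:134259888-134260137 for Nr4a1, chr19:40399123-40399372 for Ier2 and chr19:40080876-40081125 for Junb. Capitals mark the motifs found in them, which are the cAMP response element (CRE, TGACGTCA), its core TGACG, a site of EGR factors (GCGGGGGCG) and the TATA box (TATAAA), each searched on both strands.
Dusp1: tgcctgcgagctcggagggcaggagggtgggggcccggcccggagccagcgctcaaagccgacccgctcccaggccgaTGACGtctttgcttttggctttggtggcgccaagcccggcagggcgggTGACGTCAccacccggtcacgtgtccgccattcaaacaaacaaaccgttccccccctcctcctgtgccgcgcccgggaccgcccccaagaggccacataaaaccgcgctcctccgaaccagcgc
Nr4a1: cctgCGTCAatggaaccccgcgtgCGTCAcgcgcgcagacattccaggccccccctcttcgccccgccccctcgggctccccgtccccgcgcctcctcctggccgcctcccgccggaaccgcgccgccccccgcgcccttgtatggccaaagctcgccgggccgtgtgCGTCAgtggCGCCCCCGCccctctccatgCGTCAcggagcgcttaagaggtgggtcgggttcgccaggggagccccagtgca
Ier2: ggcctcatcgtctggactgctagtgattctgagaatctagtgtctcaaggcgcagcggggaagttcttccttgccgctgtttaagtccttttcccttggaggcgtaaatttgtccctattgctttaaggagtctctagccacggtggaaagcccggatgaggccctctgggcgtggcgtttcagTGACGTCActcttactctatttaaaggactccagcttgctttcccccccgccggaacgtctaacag
Junb: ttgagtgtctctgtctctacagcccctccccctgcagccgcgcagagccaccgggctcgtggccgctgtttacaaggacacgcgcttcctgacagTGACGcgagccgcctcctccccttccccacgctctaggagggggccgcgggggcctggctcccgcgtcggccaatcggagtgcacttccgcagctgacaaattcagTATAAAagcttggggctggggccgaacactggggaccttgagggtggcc

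Upstream windows were given for 7 of the 10 named genes (Fosb, Junb, Egr1, Ier2, Dusp1, Nr4a1 and Btg2). The CRE was found in 3 of the 7 windows, those of Ier2, Dusp1 and Btg2, and in 1.59% of 33465 windows of the same length across all genes. The shorter site TGACG, which the full CRE contains on either strand, was found in 6 of the 7 windows and in 18.2% of all windows. The Nr4a1 promoter shown above holds 4 copies, the farthest 246 bases before the start. The CArG box, the site of SRF, was found in the window of Egr1 alone, where it occurs 2 times, and in 1.5% of all windows. The AP-1 site TGACTCA was in none of the 7 windows and in 4.05% of all windows, and the EGR site GCGTGGGCG was in none of the 7 and in 0.478% of all. The EGR site GCGGGGGCG was in the Nr4a1 window and in 2.45% of all windows, and the TATA box was in the windows of Fosb and Junb and in 12.9% of all. These are matches of letters and not measured binding sites. The shorter site stood before members that were lower in OVX and before members that were higher.

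Between OVX and sham bone the immediate early genes did not move in a single direction. By limma Nr4a1, Dusp1, Atf3 and Ier2 were lower in OVX, Egr1 and Junb were higher, and Fos, Fosb and Jun did not pass. That is 6 of 9 genes called, 2 higher and 4 lower, beside 58.9% of all genes tested (30.3% higher and 28.6% lower), so the count is near the background and is no result about the set. The median log2 fold change of the 9 genes was -0.043, against 0.0047 over all genes, and the median size without sign was 0.45, against 0.31 over all genes. The pools of OVX and sham did not overlap in 7 of the 9 genes and in 61.2% of all genes.

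The members that fell were a nuclear receptor, a phosphatase, a stress factor and a nuclear protein of little known function. Nr4a1, an orphan nuclear receptor, was at 1.10, 1.02 and 2.06 in sham pools 1, 2 and 3, at 0.14, -0.0040 and -0.35 in the OVX pools, at -0.21, -0.071 and -0.20 in LTBB OVX and at 0.059, -0.088 and 0.0040 in STBB OVX. All 3 sham pools lay above all 9 pools of ovariectomized rats, and sham pool 3 lay above the other sham pools. The log2 fold change between OVX and sham was -1.47 (SE 0.22, adjusted p = 6.1e-05, limma), which is 2.76-fold lower, and without sham pool 3 it was -1.13. Dusp1, the phosphatase that switches off MAP kinases, was at 0.71, 0.94 and 1.24 in sham, at -0.12, -0.13 and -0.11 in OVX, at -0.040, 0.077 and -0.10 in LTBB OVX and at -0.025, -0.22 and -0.039 in STBB OVX. Here too the sham pools lay above all the others. It fell by 1.08 on the log2 scale (SE 0.11, adjusted p = 2.5e-06). Its 2 probe sets differed in size: 1368146_at had -1.67 (SE 0.098, adjusted p = 4.8e-09 over all probe sets) and did not overlap between the groups, whereas 1368147_at had -0.48 (SE 0.20, adjusted p = 0.0649) and did.

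Atf3, a factor of the ATF/CREB family that many stresses raise, was at 0.56, 1.04 and 0.87 in sham, at -0.24, 0.12 and -0.087 in OVX, at -0.30, -0.0063 and 0.057 in LTBB OVX and at -0.39, 0.0063 and -0.10 in STBB OVX. The 3 sham pools again lay above all 9 others, and the fold change between OVX and sham was -0.90 (SE 0.14, adjusted p = 0.000128). Ier2 showed a smaller difference. It was at 0.26, 0.075 and 0.22 in sham, at -0.073, -0.034 and -0.13 in OVX, at 0.012, 0.0029 and -0.0029 in LTBB OVX and at 0.024, -0.074 and -0.15 in STBB OVX, again without overlap, and fell by 0.26 (SE 0.070, adjusted p = 0.00531). With a further quantile normalization across arrays, the calls of Atf3 (-0.46, adjusted p = 0.282) and Ier2 (-0.23, adjusted p = 0.132) ended, while Nr4a1 (-0.73) and Dusp1 (-0.62) passed. That setting was applied to the deposited centred values and gives all arrays the same distribution. By construction it can shrink the differences of a group whose values spread more widely. How far this accounts for the calls it ended was not tested.

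**Figure D1:**
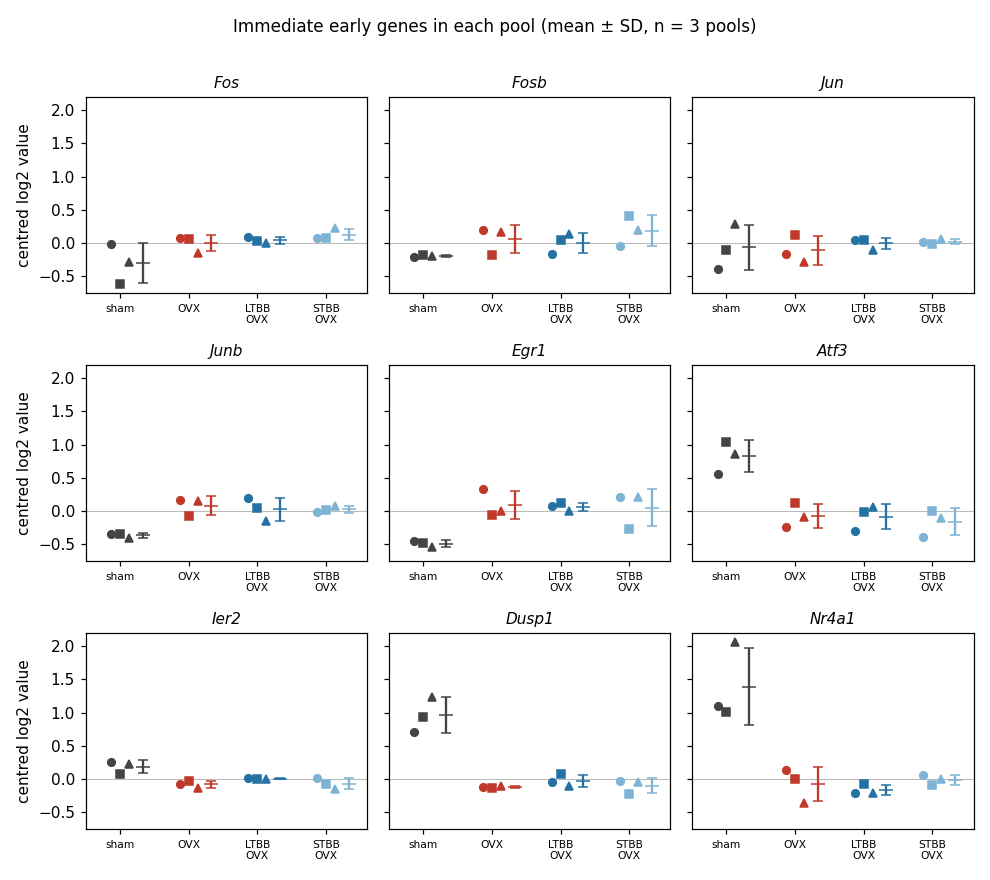
Centred log2 values of the 9 measured immediate early genes (vertical axis) in the 4 groups. Pools 1, 2 and 3 are drawn as circles, squares and triangles, and the mean ± SD (n = 3) as bars. The sham pools lie above all others in Atf3, Ier2, Dusp1 and Nr4a1 and below all others in Fosb, Junb and Egr1, by a small margin in Fosb.

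The members that rose, Egr1 and Junb, were transcription factors, as are Nr4a1 and Atf3 among those that fell. Egr1, a zinc finger factor, was at -0.44, -0.48 and -0.54 in sham, at 0.33, -0.061 and 0.0039 in OVX, at 0.073, 0.12 and -0.0039 in LTBB OVX and at 0.21, -0.27 and 0.21 in STBB OVX. All 3 sham pools lay below all 9 pools of ovariectomized rats, of which STBB OVX pool 2 was the lowest. The fold change between OVX and sham was 0.58 (SE 0.13, adjusted p = 0.00163), which is 1.49-fold higher. Junb, a Jun protein of AP-1, was at -0.34, -0.35 and -0.41 in sham, at 0.17, -0.079 and 0.15 in OVX, at 0.19, 0.039 and -0.15 in LTBB OVX and at -0.015, 0.015 and 0.084 in STBB OVX. The sham pools lay closer together than those of any other group and below all of them, and the fold change was 0.45 (SE 0.091, adjusted p = 0.000878). With the further quantile normalization both calls ended, with Egr1 at 0.40 (adjusted p = 0.317) and Junb at 0.29 (adjusted p = 0.237).

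For the Fos and Jun genes themselves the data gave no clear direction. Fosb, a partner of Jun proteins close to Fos, was at -0.21, -0.18 and -0.20 in sham, at 0.20, -0.17 and 0.17 in OVX, at -0.17, 0.044 and 0.13 in LTBB OVX and at -0.044, 0.41 and 0.19 in STBB OVX. OVX pool 2 lay just above the sham pools, and the fold change of 0.26 (SE 0.12, adjusted p = 0.0904) did not pass. Without OVX pool 2 it was 0.38 (adjusted p = 0.0189). Fos was at -0.010, -0.62 and -0.28 in sham, at 0.080, 0.057 and -0.14 in OVX, at 0.094, 0.037 and -0.0058 in LTBB OVX and at 0.074, 0.080 and 0.22 in STBB OVX. Sham pool 1 lay among the OVX pools, and the fold change of 0.30 (SE 0.12, adjusted p = 0.0536) did not pass either. It passed without sham pool 1 (0.45, adjusted p = 0.00332), without OVX pool 3 (0.37, adjusted p = 0.0393) and with array weights (0.34, adjusted p = 0.0324), whereas without sham pool 2, the lowest of the 12 arrays, it was 0.14 (adjusted p = 0.25). The Fos value is a mean of 2 probe sets that disagreed. Probe set 1375043_at was at -0.24, -1.22 and -0.57 in sham and at -0.092, 0.18 and -0.18 in OVX, a rise of 0.64 (SE 0.19, adjusted p = 0.0126 over all probe sets, of which 49.8% passed). Probe set 1371283_at was at 0.22, -0.012 and 0.012 in sham and at 0.25, -0.068 and -0.10 in OVX, with a difference of -0.045 (SE 0.11, adjusted p = 0.758).

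Jun, the main partner of Fos in AP-1, was at -0.38, -0.099 and 0.29 in sham, at -0.16, 0.13 and -0.29 in OVX, at 0.045, 0.047 and -0.10 in LTBB OVX and at 0.023, -0.018 and 0.060 in STBB OVX. The pools overlapped widely, and the fold change was -0.043 (95% confidence interval -0.36 to 0.27, adjusted p = 0.822). Its 3 probe sets had 0.26, -0.10 and -0.29, of which none passed over all probe sets, and the gene's value turned to 0.13 without sham pool 3 and to 0.048 without OVX pool 3.

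**Figure D2:**
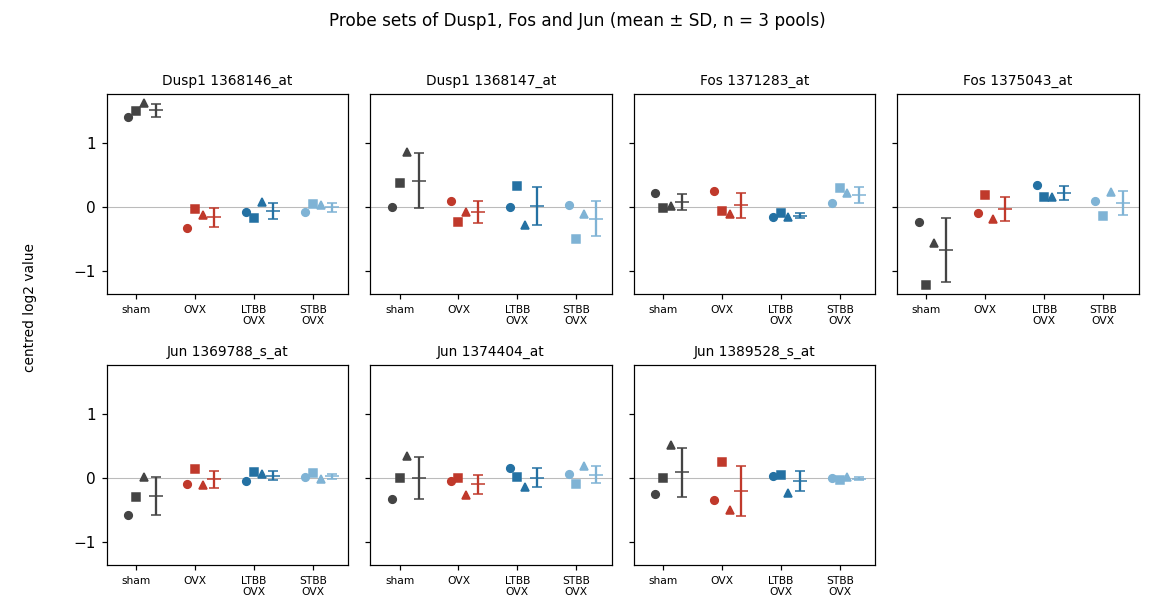
Centred log2 values (vertical axis) of the 2 probe sets of Dusp1, the 2 of Fos and the 3 of Jun in the 4 groups, with pools 1, 2 and 3 as circles, squares and triangles and the mean ± SD (n = 3). Dusp1 1368146_at separates sham from all other pools and Dusp1 1368147_at does not; of the Fos probe sets only 1375043_at is lower in sham than in OVX without overlap.

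Against the same sham arrays, the ovariectomized rats on BB diets gave values close to those of OVX. Since the 3 comparisons share the sham pools, their likeness is no independent support. In LTBB OVX 7 of 9 genes passed, 3 higher and 4 lower, beside 58.3% of all genes (29.2% higher and 29.1% lower). In STBB OVX 8 of 9 passed, 4 higher and 4 lower, beside 58.3% (29.3% higher and 29% lower). The pools did not overlap in 8 of the 9 genes in each, against 62.7% of all genes in LTBB OVX and 62% in STBB OVX. Nr4a1 had -1.55 (SE 0.22) in LTBB OVX and -1.40 (SE 0.22) in STBB OVX. Dusp1 had -0.98 and -1.06, and Atf3 had -0.91 and -0.98. Egr1 had 0.55 and 0.54, and Junb had 0.39 in both. Ier2 was nearer to 0, at -0.18 (adjusted p = 0.0396) in LTBB OVX and -0.25 (adjusted p = 0.00705) in STBB OVX. With the further quantile normalization only Nr4a1 passed in LTBB OVX (-0.84) and only Dusp1 in STBB OVX. The calls of Dusp1 in LTBB OVX (-0.37, adjusted p = 0.119) and of Nr4a1 in STBB OVX (-0.53, adjusted p = 0.103) ended, as did those of Fos, Junb, Egr1, Atf3 and Ier2 in both groups and of Fosb in STBB OVX.

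Fos passed in both BB groups, by 0.34 (adjusted p = 0.0299) in LTBB OVX and 0.43 (adjusted p = 0.00945) in STBB OVX. In LTBB OVX its value is a mean of opposite signs, with 1375043_at at 0.89 (SE 0.19) and 1371283_at at -0.21 (SE 0.11). In STBB OVX these probe sets had 0.74 and 0.12. Fosb passed in STBB OVX only, by 0.39 (adjusted p = 0.0177) against 0.20 (adjusted p = 0.191) in LTBB OVX. The difference of Fosb between the diets, 0.19 (SE 0.12, adjusted p = 1), did not pass. Jun had 0.063 and 0.087, neither past the test. With 1 probe set per gene, the first by name, Jun had 0.32 (adjusted p = 0.0413) and 0.31 (adjusted p = 0.0498) by limma. For Jun that is 1369788_s_at, whose pools overlapped those of sham in both groups. The other Jun probe sets had 0.0069 and -0.14 in LTBB OVX and 0.053 and -0.097 in STBB OVX. Under the same rule Fos passed in neither group (-0.21 and 0.12). In LTBB OVX the Fos call ended without sham pool 2 (0.19) or 3 (0.35) without LTBB OVX pool 1 (0.32) or 2 (0.35), and when only these 2 groups were fitted (adjusted p = 0.0742). The Ier2 call there ended without sham pool 1 (-0.14) or 3 (-0.16), without any 1 of the LTBB OVX pools (-0.19 to -0.18), and without STBB OVX pool 2 (-0.18). It also ended with array weights (-0.14), when only these 2 groups were fitted (adjusted p = 0.0816), with 1 probe set per gene (adjusted p = 0.0525) and with the pool number as a block (-0.18, adjusted p = 0.0518). The Fosb call in STBB OVX ended without STBB OVX pool 2 (0.27). By limma's F-test over the 4 groups 7 of 9 genes passed, all but Fosb and Jun, beside 55.6% of all genes; without sham pool 3 there were 5.

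**Figure D3:**
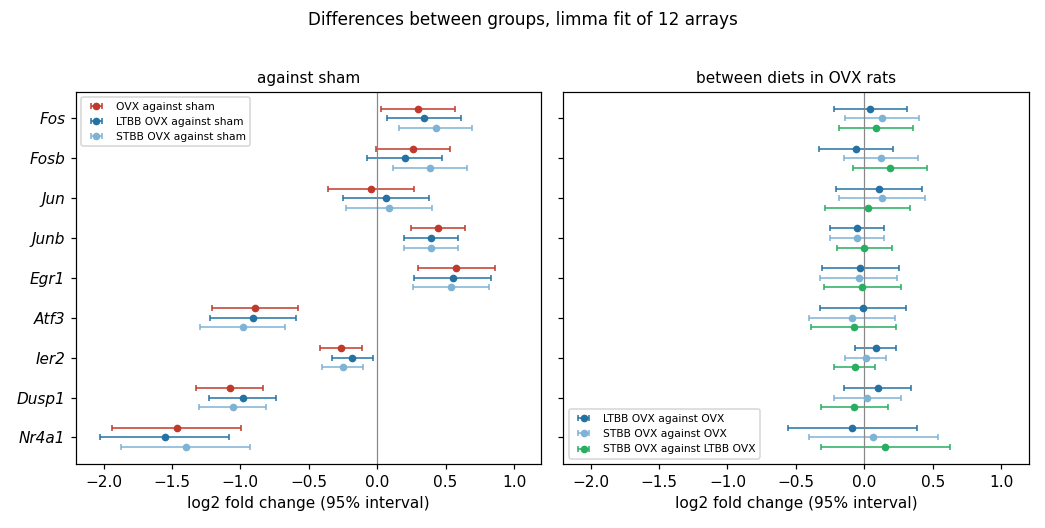
Log2 fold changes (horizontal axis) with 95% confidence intervals of the 9 genes, from the limma fit of all 12 arrays. On the left the OVX, LTBB OVX and STBB OVX groups are set against sham, with Atf3, Ier2, Dusp1 and Nr4a1 below 0 and Junb and Egr1 above 0 in all 3; on the right, among the groups of ovariectomized rats, every interval includes 0.

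The comparisons of the BB diets with OVX ask whether the diets changed these genes in ovariectomized rats. By limma 0 of 9 genes passed in LTBB OVX against OVX, in STBB OVX against OVX or in STBB OVX against LTBB OVX, beside 0% of all genes in each. At an unadjusted p under 0.05 there were also 0 of the 9, beside 2.31%, 2.89% and 3.4% of all genes. The fold changes ran from -0.089 (Nr4a1) to 0.11 (Jun) in LTBB OVX, from -0.089 (Atf3) to 0.13 (Jun) in STBB OVX and from -0.078 (Atf3) to 0.19 (Fosb) between the diets. The pools did not overlap in Ier2 and Dusp1 between LTBB OVX and OVX, by 0.082 (95% confidence interval -0.069 to 0.23) and 0.097 (-0.15 to 0.34), that is 2 of 9 genes, beside 8.7% of all genes. None of the 9 genes was without overlap between STBB OVX and OVX (9.38% of all genes) or between the diets (10.9%). Of the 2 Fos probe sets, 1371283_at did not overlap between the diets, at 0.32 (SE 0.11, unadjusted p = 0.00873 by limma). It did not pass over all probe sets, and the share of all probe sets without overlap is not given. Probe set 1375043_at had -0.15 (SE 0.19) there, so the Fos gene value of 0.084 is a mean of opposite signs.

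A missed threshold does not show that the diets had no effect on these genes. The intervals were narrowest for Ier2, -0.14 to 0.16 in STBB OVX, and widest for Nr4a1, -0.41 to 0.54 in STBB OVX and -0.56 to 0.38 in LTBB OVX. For Egr1 the intervals were -0.32 to 0.24 in STBB OVX and -0.31 to 0.25 in LTBB OVX, and for Fos -0.14 to 0.40 and -0.22 to 0.31. Among ovariectomized rats the muscle markers differed more than these genes did. The 10 markers had a median of 3.23 in STBB OVX against OVX. All 10 were without overlap between the pools, beside 9.38% of all genes, though none passed over all genes. The 9 genes there ran from -0.089 (Atf3) to 0.13 (Jun), with Nr4a1 at 0.064, Dusp1 at 0.023 and Ier2 at 0.011. In LTBB OVX against OVX the markers had a median of 0.88, and 0 of 10 were without overlap, beside 8.7% of all genes. The muscle markers of the STBB OVX arrays still lay below those of every sham array, and their part in the values of these genes was not tested.

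Within the groups some members rose and fell together and others did not. Of the 9 genes, the number above their group mean ranged from 2 (LTBB OVX pool 3 and STBB OVX pool 2) to 8 (STBB OVX pool 3), and the mean deviation of a pool from its group ranged from -0.078 in sham pool 1 to 0.15 in sham pool 3. Sham pool 3 was highest of the sham pools in Nr4a1, by 0.67 over the group mean, and also in Jun and Dusp1, but lowest in Egr1 and Junb. STBB OVX pool 2 was highest of its group in Fosb, by 0.23, and lowest in Egr1, at -0.32. Of the 36 pairs of members 18 had deviations that correlated above 0 over the 12 arrays, and the median Pearson r was -0.012. The highest were between Jun and Dusp1 (0.777), Jun and Nr4a1 (0.773) and Dusp1 and Nr4a1 (0.754), the genes that were highest in sham pool 3, and the lowest was between Egr1 and Atf3 (-0.577). These values are a description, since the genes were measured on the same arrays.

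As a description of likeness, the 5 genes outside the set whose deviations from the group means were closest to those of Fos were Mycbpap, Ube2j2, Cask, Atf2 and Stmn2 (Pearson r from 0.90 to 0.92 over 12 arrays). Those closest to Egr1 were Tcea1, Xkr5, Ckap4, Rwdd1 and Prkx (r from 0.89 to 0.96). They are the highest values among all genes, and high values are found in any search of that size.

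Relatives of the members in the AP-1 family went in both directions between OVX and sham. Of 12 listed genes 11 were measured, of which 4 were higher and 3 lower in OVX and 4 did not pass, with a median log2 fold change of -0.038. As given above, 58.9% of all genes passed (30.3% higher and 28.6% lower), and the counts of this list and of the lists that follow are to be read beside these shares. Jdp2, a Jun dimerization protein known from osteoclast formation, rose by 2.59 (SE 0.13, adjusted p = 2.3e-09), and Batf, an AP-1 factor of immune cells, by 0.98 (SE 0.073). The small Maf proteins Mafk and Mafg had -1.52 (SE 0.064) and -0.85 (SE 0.065), both lower. Named after their values were seen, the Fos relative Fosl2 rose by 0.49 (SE 0.091, adjusted p = 0.000388) and Jund fell by 0.38 (SE 0.092, adjusted p = 0.00277), while Fosl1 had -0.038 (adjusted p = 0.844).

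Of 42 other immediate early genes, all measured, 20 were higher and 8 lower in OVX than in sham by limma, and 14 did not pass, beside 30.3% higher and 28.6% lower of all genes. Their median log2 fold change was 0.23, beside 0.0047 over all genes. Ccn2, a matricellular growth factor, rose by 1.95 (SE 0.13, adjusted p = 4.4e-08). Ppp1r15a, which restores translation after stress, fell by 2.17 (SE 0.10, adjusted p = 1.8e-09), Dusp2, a phosphatase of the same family as Dusp1, by 1.62 (SE 0.12), and the growth arrest gene Gadd45a by 1.51 (SE 0.11). Close relatives differed from the members and from each other. Named after their values were seen, Nr4a2 rose by 1.28 (SE 0.089, adjusted p = 5.0e-08) where Nr4a1 fell, and Nr4a3 had -0.12 (adjusted p = 0.134). Dusp6, a phosphatase of ERK, rose by 1.12 (SE 0.062, adjusted p = 6.1e-09) where Dusp1 and Dusp2 fell. Egr2 rose by 0.81 (SE 0.11, adjusted p = 4.3e-05) and Nab2, a corepressor of EGR factors, by 1.29 (SE 0.11), in the direction of Egr1, while Egr3 had 0.094 (adjusted p = 0.581).

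Of 25 listed kinases and transcription factors that act upstream of immediate early genes 18 were measured, and 1 was higher and 9 were lower in OVX, with a median of -0.22. The 10 called are again beside 58.9% of all genes. The factor Elk3 rose by 1.01 (SE 0.087, adjusted p = 3.9e-07). The kinases Rps6ka5, Map2k3 and Mapk14 were lower, at -1.54 (SE 0.11), -0.73 (SE 0.082) and -0.68 (SE 0.065). Map2k3 activates p38, the product of Mapk14, and Rps6ka5 acts below it. Named after their values were seen, the related kinase Map2k6 had -0.12 (adjusted p = 0.387), Srf -0.12 (adjusted p = 0.163) and Creb1 -0.043 (adjusted p = 0.686). Transcript values of kinases say nothing of their activity.

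Other stress responses were set beside these genes. Of 11 measured heat shock genes out of 14 listed 2 were higher and 7 lower in OVX, with a median of -0.34, beside 30.3% higher and 28.6% lower of all genes. The small heat shock proteins Cryab and Hspb1, which are abundant in muscle, fell by 5.27 (SE 0.37) and 2.37 (SE 0.15), the inducible Hspa1a by 1.73 (SE 0.19) and its cochaperone Bag3 by 0.64 (SE 0.092). Muscle markers were also lower in OVX than in sham, as given above. In STBB OVX against OVX they had a median of 3.23, and the heat shock list had -0.015, from -0.091 to 1.25. The part of the muscle markers was not tested. Of 14 genes of the unfolded protein and integrated stress response 7 were higher and 2 lower, beside the same shares, with a median of 0.21. The chaperones of the endoplasmic reticulum Pdia4 and Hsp90b1 rose, by 1.49 (SE 0.065) and 1.09 (SE 0.086), and Ddit4, an inhibitor of mTOR signalling, by 0.88 (SE 0.11), whereas Asns, the asparagine synthetase, fell by 1.16 (SE 0.15).

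A list of glucocorticoid response held genes known to be raised by glucocorticoids and Nr3c1, the glucocorticoid receptor itself. Of 11 listed 10 were measured, and 3 were higher and 2 lower in OVX and 5 did not pass, beside 58.9% of all genes called, with a median of 0.017. Fkbp5, a cochaperone of the glucocorticoid receptor, fell by 1.72 (SE 0.087, adjusted p = 2.8e-09) and Pdk4, a kinase of pyruvate dehydrogenase abundant in muscle, by 2.42 (SE 0.24), while the metallothionein Mt2A rose by 1.57 (SE 0.087) and Errfi1, an inhibitor of the EGF receptor, by 1.18 (SE 0.17). In all 6 of these lists no gene passed between the BB diets and OVX or between the diets. With the further quantile normalization the numbers called between OVX and sham were 5 for the AP-1 family, 9 for the other immediate early genes, 3 for the upstream genes, 2 for heat shock, 3 for the unfolded protein response and 3 for the glucocorticoid list, a setting under which 3010 rather than 8367 genes passed in all.

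**Figure D4:**
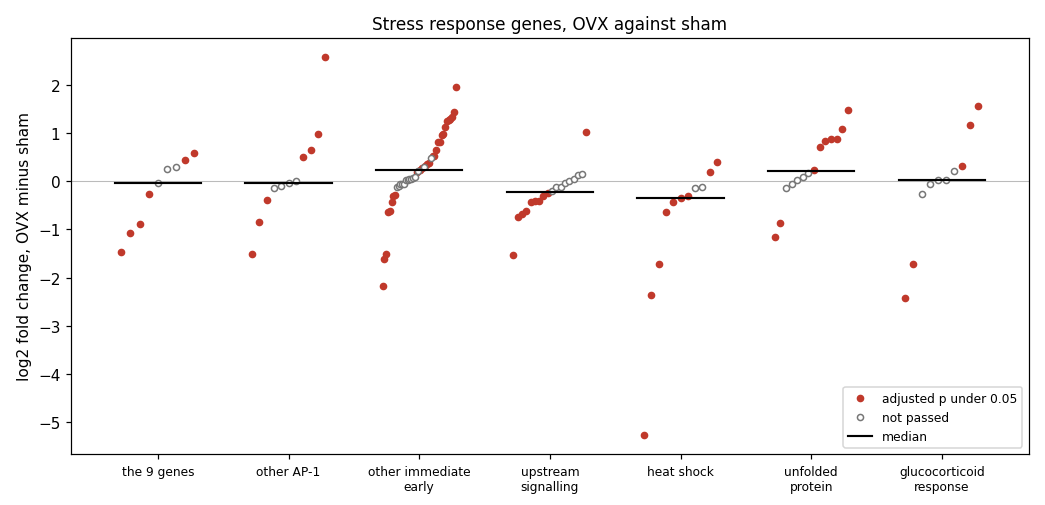
Log2 fold changes between OVX and sham (vertical axis) of the 9 immediate early genes and of 6 related lists, 1 point per gene in order of value, with the median as a bar. Filled points passed limma at an adjusted p of 0.05 over all genes. Every list holds genes on both sides of 0, and the median of the 9 genes is -0.043.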

How the data were processed

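The authors deposited log2 values of 12 arrays, made by robust multiarray analysis from the scanned arrays, followed in GeneSpring by a floor on the smallest measurements and by normalization of each array and each gene. GCOS and RMA are the tools named by the submitters' processing notes, without versions. Per-probe-set centring removed the level of each gene, so no filter on dim probe sets was possible. Of 31099 probe sets 57 controls were left out; 20826 of the remaining 31042 carried 1 symbol, 436 several and 9780 none, and 20758 symbols were matched by gene ID to RefSeq (GRCr8). A gene was the mean of its probe sets with that symbol alone.

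The 4 group means were fitted over all 12 arrays with limma 3.58.1 (R 4.3.3), and p-values were adjusted by Benjamini-Hochberg over all 14217 genes, or over all probe sets where probe sets are given, with a threshold of 0.05. Fold changes are on the log2 scale with moderated standard errors (SE) and 95% confidence intervals. The fit was tested on simulated data. The members and lists were chosen with earlier results of these data known. Genes named are the 10 members, up to 4 genes of each pathway list with the largest changes between OVX and sham, and the 5 closest to Fos and to Egr1; the others are marked as named after their values were seen. Promoter sequences are from RefSeq. Alternatives were another normalization, array weights, other probe set rules, a fold threshold, the pool number as a block and each array left out. Figures were drawn with matplotlib 3.10.9. The pool numbers in the labels were checked as a pairing by the correlation of deviations from the group means. Between sham and the 2 BB groups pools of the same number correlated from 0.104 to 0.232, all 6 above 0.1. That value was taken as the limit for a pairing, so the block setting is of use for those comparisons. The block was fitted over all 12 arrays, with the effect of a pool number shared by all 4 groups, OVX included. It is therefore no pairing of sham with the BB groups alone. The main calls were made without a block. In the other comparisons pools of the same number correlated from -0.376 to 0.086. Over the arrays of all other groups, 3 of 12 arrays correlated best with an array of their own number, which by itself shows no pairing. The labels do not say what a pool number shares.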

Additional observations from a re-analysis of the deposited data

How the results depend on the processing

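Nr4a1, Dusp1, Atf3, Ier2, Egr1 and Junb kept their direction between OVX and sham under every alternative tried, and their calls under all but 2: of 6 members 2 (Nr4a1 and Dusp1) passed with a further quantile normalization and 2 (the same) against a fold of 1.5. Under these 2 settings 1 and 2 passed in LTBB OVX and 1 and 3 in STBB OVX against sham, and 1 in the F-test after quantile normalization, alternatives of the F-test and of the lists being chosen after seeing the data. Over all genes 3010 passed between OVX and sham after quantile normalization, 2874 against the fold of 1.5, 8367 as reported and 7514 to 8514 under the other alternatives. The fold setting asks for a larger change by construction, and the quantile setting gives all arrays the same distribution of values that were already centred. Among ovariectomized rats 0 genes passed, but 40 did between STBB OVX and OVX when only these 2 groups were fitted and up to 10 between the diets with quantile normalization, none of them a member. Leaving out each array gave 6 to 7 members between OVX and sham, 5 to 7 in LTBB OVX, 7 to 8 in STBB OVX and 5 to 7 in the F-test, and 0 in the comparisons among ovariectomized rats. With the pool number as a block 6 members passed between OVX and sham, 6 in LTBB OVX and 8 in STBB OVX against sham, and 0 among ovariectomized rats, and Ier2 in LTBB OVX was the call lost. Between OVX and sham, where the number does not pair the pools, the block moved the count over all genes from 8367 to 8196.

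Signs turned only for Fos and Jun among the comparisons with sham. With 1 probe set per gene Fos was at -0.045 in OVX and -0.21 in LTBB OVX, and Jun at 0.26 in OVX; their probe sets disagree. Leaving out 1 array gave Jun values between -0.20 and 0.13 for OVX, between -0.097 and 0.24 for LTBB OVX, and between -0.072 and 0.26 for STBB OVX. Among ovariectomized rats, where no member passed, array weights gave Egr1 0.016 and Nr4a1 0.045 in LTBB OVX and Egr1 0.0080 in STBB OVX against OVX, and Junb -0.011 between the diets. With 1 probe set per gene Fos was at -0.16 in LTBB OVX, and Jun at -0.014 and Dusp1 at 0.051 between the diets, where quantile normalization gave Junb -0.058. With 1 array left out the ranges that crossed 0 were, in LTBB OVX against OVX, Fosb -0.18 to 0.023, Egr1 -0.10 to 0.092, Nr4a1 -0.23 to 0.018, Atf3 -0.097 to 0.097, Fos -0.027 to 0.085, Junb -0.14 to 0.033. In STBB OVX against OVX they were Egr1 -0.12 to 0.12, Atf3 -0.18 to 0.024, Ier2 -0.034 to 0.053, Nr4a1 -0.076 to 0.17, Dusp1 -0.013 to 0.087, and between the diets Egr1 -0.094 to 0.15, Jun -0.024 to 0.049, Junb -0.086 to 0.083, Atf3 -0.19 to 0.035. The cause of these shifts was not tested.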
